A study of Mus musculus with 12 samples.

Results

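The 10 genes described here make or control the transcription factor NF-kB: Rela, Relb, Rel, Nfkb1 and Nfkb2 encode its subunits, Bcl3 an atypical IkB protein that binds p50 and p52 in the nucleus, Ikbkb and Chuk the catalytic IkB kinases IKKbeta and IKKalpha, Map3k14 the NF-kB inducing kinase (NIK), and Traf2 an adaptor of TNF receptors. They were chosen by name out of 22380 protein-coding genes, and all 10 were found in the annotation. For each gene, ChIP-seq peaks of the histone marks H3K9me2 and H3K9me3 were taken within 3 kb of any annotated transcription start, called promoter peaks below, and within the gene body. Wild-type C57BL/6J mice were kept on standard chow (SCD) or given high-fat food (HFD) from 6 weeks of age, and brown adipose tissue (BAT) and subcutaneous white adipose tissue (WAT) were collected after 12 weeks of feeding. The 8 peak lists hold 1 library per diet, tissue and mark, and the 4 input libraries of the 12 in the series were not analysed here. How many animals went into a library, and their sex, are not given in the sources used here. With no replicates there is no error between animals, so every difference between diets below is a difference between libraries, with no p-value. Marks are named as the sample labels name them, although the methods pair the H3K9me2 label with an antibody to trimethylated K9 and the H3K9me3 label with one to dimethylated K9, so the names of the marks may be exchanged throughout.

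In resting cells, NF-kB dimers are held in the cytoplasm by IkB proteins. In the canonical arm, receptors for TNF, interleukin 1 and microbial products lead to phosphorylation of IkB by IKKbeta, and RelA and p50, the product of Nfkb1, enter the nucleus. In the non-canonical arm, TRAF2 with TRAF3 and the cIAP ubiquitin ligases keeps NIK low by having it degraded, and once NIK accumulates it acts through IKKalpha to have p100, the product of Nfkb2, cut to p52, the partner of RelB. Both arms have been studied in obese adipose tissue, where macrophages accumulate and NF-kB drives inflammatory cytokines. H3K9me2 and H3K9me3 are marks best known from silent chromatin, and a peak list shows where such a mark was enriched and not how strongly a gene was transcribed. These lists come from whole tissue, so a change in the mix of cell types and a change within 1 type of cell cannot be told apart.

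The number in the fifth column of the lists, called the score below, comes without a unit. Its lowest value is 50 or 50.01 in 6 of the lists and 30 in both SCD lists of WAT, and on that ground it is taken as -log10 p multiplied by 10. It is not scaled for the depth of a library, which is not given in the lists, so scores are also given as a percentile, the share of peaks in the same list with a lower score. In the SCD lists of WAT, peaks scoring from 30 up to 50 count towards the percentile, and the HFD lists hold no such peaks. This raises the SCD percentiles of WAT beside those of HFD. Of the 40013 peaks of WAT H3K9me2 SCD, 21746 scored at least 50. The lists hold between 21976 and 52758 peaks. Under SCD and HFD the numbers are 24887 and 43173 in BAT H3K9me2, and 26835 and 52758 in BAT H3K9me3. In WAT they are 40013 and 21976 for H3K9me2, and 27774 and 29190 for H3K9me3. H3K9 peaks at the promoters of genes that mark a tissue cannot show which tissue was taken: Ucp1, the uncoupling protein of brown fat, had a promoter peak in 3 BAT lists and in 2 WAT lists.

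The 10 genes are spread over 6 chromosomes of mm9 (NCBIM37, with GENCODE vM1 genes), and no start of another protein-coding gene lies within 3 kb of any of their starts. Their median length was 29208 bp against 15420 bp over all protein-coding genes, and their median number of annotated starts was 5 against 2. Long genes with many starts have more windows in which a peak can fall, so the outermost 5 prime start was told from starts inside the gene. The gene of Map3k14 (chr11:103081076-103128786, minus strand) has 5 starts, of which 3 belong to processed transcripts and lie 25201, 27338 and 45625 bp inside it. All 10 outermost starts are rich in CpG. Within 500 bases on either side of the outermost start, the median GC content of the 10 genes was 63.5% against 54.7% over all genes, and the median ratio of observed to expected CpG was 0.85 against 0.55.

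The bases that end at the outermost start are shown for Map3k14 and for the 6 other genes whose promoter peaks differed between diets in at least 1 tissue and mark. Each run has 120 bases of mm9, is read 5 prime to 3 prime on the strand of the gene, ends with the first transcribed base, and has its CpG dinucleotides in capitals.
Map3k14 (chr11:103128786-103128905, minus strand): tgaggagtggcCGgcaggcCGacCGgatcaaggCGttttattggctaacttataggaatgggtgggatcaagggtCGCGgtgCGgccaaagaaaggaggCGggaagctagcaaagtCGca
Rela (chr19:5637364-5637483, plus strand): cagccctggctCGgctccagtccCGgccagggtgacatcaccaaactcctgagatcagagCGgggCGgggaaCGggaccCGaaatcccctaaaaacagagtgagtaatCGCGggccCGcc
Rel (chr11:23670970-23671089, minus strand): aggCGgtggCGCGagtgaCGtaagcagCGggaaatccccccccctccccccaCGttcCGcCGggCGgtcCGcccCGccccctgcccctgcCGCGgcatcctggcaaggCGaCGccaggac
Ikbkb (chr8:23817061-23817180, minus strand): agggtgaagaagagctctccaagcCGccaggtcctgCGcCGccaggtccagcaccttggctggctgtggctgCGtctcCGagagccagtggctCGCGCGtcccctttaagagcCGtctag
Chuk (chr19:44181970-44182089, minus strand): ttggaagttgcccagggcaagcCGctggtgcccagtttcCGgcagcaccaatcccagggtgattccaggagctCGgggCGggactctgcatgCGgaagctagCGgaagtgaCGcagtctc
Traf2 (chr2:25402460-25402579, minus strand): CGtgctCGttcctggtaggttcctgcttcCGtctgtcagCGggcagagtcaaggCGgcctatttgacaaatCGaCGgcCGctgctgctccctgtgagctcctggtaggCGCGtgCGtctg
Bcl3 (chr7:20408119-20408238, minus strand): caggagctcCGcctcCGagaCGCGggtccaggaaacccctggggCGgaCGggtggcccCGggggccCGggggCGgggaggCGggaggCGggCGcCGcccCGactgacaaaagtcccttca

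These runs hold between 7 CpG, in Chuk, and 15, in Rel, and Map3k14, Rela and Ikbkb hold 9 each. Inside the genes, 6 stretches held peaks of at least 2 lists. Of these, 4 are shown the same way at the centre of the bases their peaks share, since they carry the peaks that lie away from the 5 prime ends. A stretch of Map3k14 near its 3 prime end (2 lists) and one of Nfkb2 (6 lists, whose peaks share no base) are not shown. None of the bases shown lies in an untranslated exon.
Map3k14 inner stretch A (chr11:103092058-103092177, minus strand): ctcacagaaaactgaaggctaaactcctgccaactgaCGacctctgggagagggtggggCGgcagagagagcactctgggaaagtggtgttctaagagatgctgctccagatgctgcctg
Map3k14 inner stretch B (chr11:103100625-103100744, minus strand): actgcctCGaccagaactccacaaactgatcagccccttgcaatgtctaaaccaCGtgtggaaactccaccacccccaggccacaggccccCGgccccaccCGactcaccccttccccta
Relb inner stretch (chr7:20204892-20205011, minus strand): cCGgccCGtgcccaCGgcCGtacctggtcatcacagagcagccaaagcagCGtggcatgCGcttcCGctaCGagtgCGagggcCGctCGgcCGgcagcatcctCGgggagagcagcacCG
Bcl3 inner stretch (chr7:20396661-20396780, minus strand): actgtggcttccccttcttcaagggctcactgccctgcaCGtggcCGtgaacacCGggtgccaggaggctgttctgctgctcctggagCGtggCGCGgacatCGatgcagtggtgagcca

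Stretches A and B of Map3k14 hold 2 and 4 CpG, while the inner stretch of Relb holds 14 and that of Bcl3 holds 7.

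NF-kB itself binds a 10-letter motif, the kappaB site, which several genes of the family are known to carry in their own promoters. The kappaB consensus was searched on both strands from 250 bases before to 50 bases after the outermost start. A match was found in 5 of the 10 genes, Relb, Rel, Nfkb1, Nfkb2 and Bcl3, and in 8.9% of all 22380 promoters (1989 promoters). In Map3k14, Rela, Ikbkb, Chuk and Traf2 no such letters lay in this window, which says nothing of the factor. The matches are in capitals, with 10 bases of the gene strand on either side, or fewer where the window ends, and overlapping matches are joined to 1 run.
Relb, upstream (chr7:20214865-20214894): gtgagcagcgGGGGTTTTCCcattcccttt
Relb, near the start (chr7:20214792-20214821): cggcggcgccGGGGAATTCCgccgccccgc
Rel (chr11:23671041-23671071): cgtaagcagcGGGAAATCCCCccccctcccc
Nfkb1 (chr3:135354462-135354490): cgacgtcagtGGGAATTTCCagccaggaa
Nfkb2, upstream (chr19:46379178-46379208): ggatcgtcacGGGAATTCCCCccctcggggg
Nfkb2, near the start (chr19:46379206-46379235): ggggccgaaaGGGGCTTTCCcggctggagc
Bcl3 (chr7:20408083-20408112): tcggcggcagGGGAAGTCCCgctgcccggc

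The match of Rel, whose capitals join 2 overlapping ones on opposite strands, lay inside a peak in 7 of the 8 lists. Those of Nfkb1 and Bcl3 lay inside a peak in 4 lists each. Both matches of Nfkb2 lay inside a peak in 3 lists, and both of Relb in 2, the BAT H3K9me3 lists of both diets.

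In BAT H3K9me3, all 10 genes had a promoter peak under SCD and under HFD, where 52.3% and 58.9% of all protein-coding genes had one. In BAT H3K9me2, 8 had one under SCD (all genes 43.3%) and 7 under HFD (45.6%). WAT H3K9me2 gave the same counts, 8 under SCD (54.7%) and 7 under HFD (39.3%). WAT H3K9me3 had the fewest, 1 of 10 under SCD (18.9%) and 3 of 10 under HFD (35.9%), each within 1 gene of the share of all genes. The SCD lists of WAT hold weaker peaks than the other lists. At a score of at least 50, the 8 genes in WAT H3K9me2 SCD remained (all genes 42.3%), and the 1 gene in WAT H3K9me3 SCD was lost (0 of 10, all genes 6.96%).

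In BAT H3K9me3, most genes with a CpG-rich start had a peak there. Of the 10211 protein-coding genes with a CpG ratio of at least 0.6 at the outermost start, as all 10 members have, 84.2% and 89.6% had a peak within 3 kb of it in BAT H3K9me3 under SCD and HFD, and of the other 12169 genes 20.4% and 27.4%. By the same count, which leaves out the inner starts, 6 and 5 members had a peak in BAT H3K9me2 under SCD and HFD, against 66.2% and 56.4% of CpG-rich genes. In WAT H3K9me2, 7 members had one in each diet, against 80.6% under SCD and 65.6% under HFD. In WAT H3K9me3, 0 members had one under SCD and 2 under HFD, against 16.9% and 49.7%. With 10 genes, these shares do not set the members apart from other genes with CpG-rich starts.

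**Figure D1:**
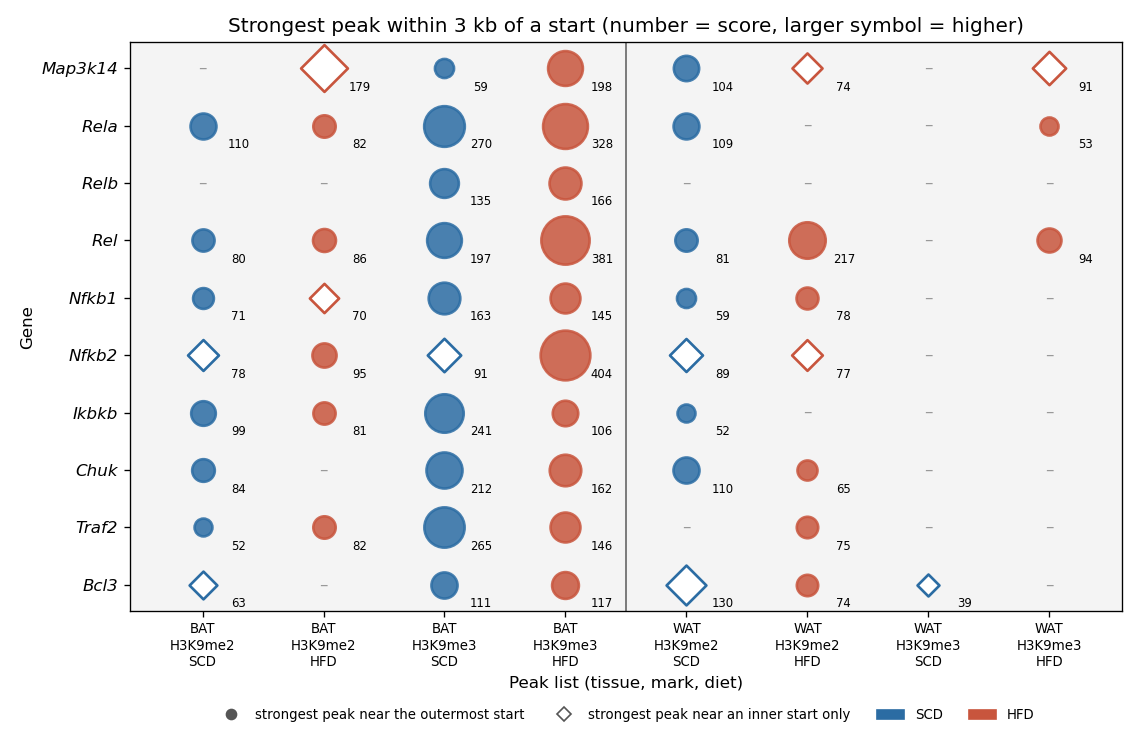
Strongest promoter peak of each of the 10 genes (rows) in each of the 8 peak lists (columns, by tissue, mark and diet), with the score printed beside the symbol and a dash where there is none; filled circles lie within 3 kb of the outermost start and open diamonds near an inner start only. The 2 BAT H3K9me3 columns are full, Relb has peaks in those 2 columns alone, and WAT H3K9me3 has 4 symbols in all.

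A peak covered a start itself in as many of the 10 genes as had a promoter peak or 1 fewer, except in WAT H3K9me3 HFD, with 1 covered start against 3 promoter peaks. The counts under SCD and HFD were 7 and 6 in BAT H3K9me2 (all genes 37.2% and 33.5%), 10 and 10 in BAT H3K9me3 (46.8% and 50.3%), 7 and 6 in WAT H3K9me2 (45.4% and 31%), and 1 and 1 for H3K9me3 in WAT (9.75% and 26.4%). A peak anywhere in the gene body was found in 10 and 7 in BAT H3K9me2 (47.4% and 53.2%), 10 and 10 in BAT H3K9me3 (54.4% and 62.3%), 9 and 8 in WAT H3K9me2 (57.9% and 41.4%), and 3 and 3 for H3K9me3 in WAT (28.3% and 42%). The peaks covered little of the genes. Of the 350078 bases of the 10 genes, between 0.46%, in WAT H3K9me3 SCD, and 4.25%, in BAT H3K9me2 HFD, lay under a peak.

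Between diets, the 10 genes did not move one way. In BAT H3K9me2, 9 genes had a promoter peak in either diet: Chuk and Bcl3 in SCD only, which was the case for 20.1% of all genes so marked in either diet, Map3k14 in HFD only (24.1%), and 6 in both. In BAT H3K9me3, 0 of the 10 were in SCD only (3.54%) and 0 in HFD only (14.5%). In WAT H3K9me2, Rela and Ikbkb were in SCD only (31.4%), Traf2 in HFD only (4.58%), and 6 of 9 in both. In WAT H3K9me3, where 4 genes had a promoter peak at all, Bcl3 was in SCD only (16.1%), Map3k14, Rela and Rel were in HFD only (55.8%), and none was in both. By these calls per gene, none had a mark in SCD only in 1 tissue and the same mark in HFD only in the other. With a score of at least 80, Map3k14 and Nfkb2 had H3K9me2 in HFD only in BAT and in SCD only in WAT. By position, Nfkb1 and Ikbkb also had an HFD-only H3K9me2 peak in BAT and an SCD-only one in WAT, as did Bcl3 for H3K9me3. In all of these genes the BAT and WAT peaks lay at different places, so no single site went opposite ways. For Nfkb1, the HFD-only peak of BAT was centred 97602 bp inside the gene. The H3K9me2 peak over its start was in SCD only in both tissues.

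Calls by gene hide differences in position. Where a promoter peak was counted as of 1 diet only if no peak of the other diet overlapped it, BAT H3K9me2 had 3 genes with an SCD-only peak (Nfkb1, Chuk and Bcl3) and 4 with an HFD-only peak (Map3k14, Nfkb1, Nfkb2 and Ikbkb). In WAT H3K9me2 the same count gave 4 genes for SCD (Rela, Nfkb1, Ikbkb and Bcl3) and 2 for HFD (Nfkb2 and Traf2). Bcl3 counted there only through an upstream peak with a score of 30.02, below the lowest score of the HFD list, 50.

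Map3k14 had no peak at its 5 prime end in BAT H3K9me2 under either diet. Its HFD-only promoter call there came from 2 peaks inside the gene. The peak with the higher score, 179.48 (percentile 92.0 of its list), was 2390 bp wide and centred 47010 bp inside the gene, near the innermost start and across the 3 prime end of the gene, and covered no start. The other scored 74.07 (percentile 47.0) and covered the start 27338 bp inside. With starts of protein-coding transcripts alone, or with the outermost start alone, Map3k14 had no promoter peak in either diet of BAT H3K9me2.

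The 5 prime end of Map3k14 was covered in 4 lists. In BAT H3K9me3 the peak scored 59.37 under SCD (percentile 11.7, 1075 bp wide) and 197.78 under HFD (percentile 74.1, 986 bp). In WAT H3K9me2 the order was the other way, 104.34 under SCD (percentile 77.2, 821 bp) and 60.79 under HFD (percentile 25.6, 612 bp). The peaks of these 4 lists covered both coding starts. In WAT H3K9me3 the HFD-only call again rested on an inner peak, with a score of 90.88 and a width of 1929 bp, centred 46638 bp inside the gene, and the SCD list held only an intron peak with a score of 36.44, centred 17536 bp inside.

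Inside Map3k14, the coding-exon stretch A recurred in 5 lists. Its peak scored 87.41 under SCD and 77.86 under HFD in BAT H3K9me2, 94.86 and 198.32 in BAT H3K9me3, and 53.41 under SCD in WAT H3K9me2, with none under HFD. Stretch B recurred in 4 lists, with scores of 74.07 in BAT H3K9me2 HFD, 133.83 in BAT H3K9me3 HFD, 33.95 in WAT H3K9me2 SCD and 74.17 in WAT H3K9me2 HFD. The largest difference in covered length between diets was in BAT H3K9me2. There Map3k14 held 1 peak over 2.84% of its length under SCD and 5 peaks over 13.33% under HFD. Those of HFD lay between 27699 and 47010 bp inside the gene, in its 3 prime part. The BAT H3K9me2 list as a whole was also longer under HFD, with 43173 peaks against 24887 under SCD.

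**Figure D2:**
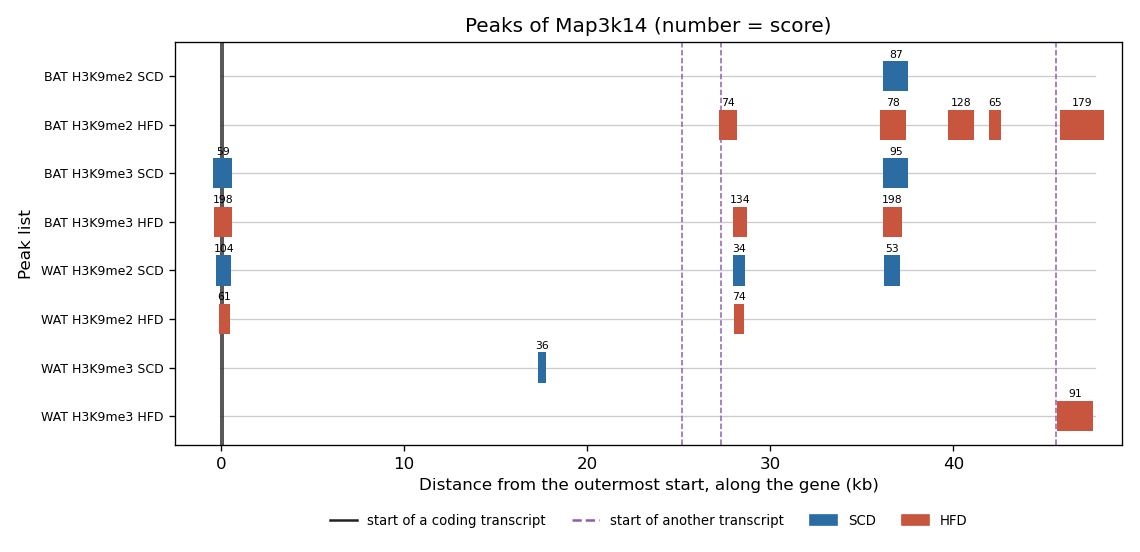
Peaks of Map3k14 in the 8 lists (rows), drawn to scale along the gene by distance from its outermost start in kb, with SCD in blue and HFD in red; black lines mark starts of coding transcripts, dashed lines those of processed transcripts, and the number above each bar is its score. The start at 0 is covered in the BAT H3K9me3 and WAT H3K9me2 rows of both diets, and the 5 peaks of BAT H3K9me2 HFD all lie in the 3 prime part of the gene.

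Rela encodes the p65 subunit, which carries the transactivation domain of the canonical dimer. Its peaks lay on its 5 prime end in 6 lists and were among the highest of the family in BAT H3K9me3, 269.80 under SCD and 327.95 under HFD (percentiles 73.1 and 86.3). In BAT H3K9me2 they scored 109.62 and 81.68. In WAT H3K9me2 the SCD list had a peak of 108.82 (percentile 78.4) and the HFD list had none. In WAT H3K9me3 the HFD list had a peak of 53.01, low in its list (percentile 8.8), which was 581 bp wide, lay upstream with its centre at -363 bp, and covered no start.

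Rel encodes c-Rel, the subunit known best from lymphocytes, and has a single annotated start. That start was covered in 7 of the 8 lists, more than for any other of the 10 genes, and only the WAT H3K9me3 SCD list lacked it. In BAT H3K9me2 the scores were 80.11 under SCD and 85.87 under HFD, and in BAT H3K9me3 196.55 and 380.70. In WAT they were 81.14 (percentile 68.5) and 216.76 (percentile 92.7) for H3K9me2, and 93.67 for H3K9me3 under HFD. In the 3 pairs with a peak in both diets, the HFD peak of Rel thus had the higher score and the smaller width, 1057 against 1345 bp, 1258 against 1267 bp, and 963 against 1178 bp. The median width of all peaks was smaller under HFD in these pairs too, 929 against 963 bp, 707 against 922 bp, and 653 against 697 bp. The pattern of lists of Rel was also the commonest one among the members: 2397 genes, 10.7% of all, had promoter peaks in the same 7 lists and not in the other.

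Relb encodes the partner of p52 in the non-canonical dimer. Its 5 prime end had a peak in BAT H3K9me3 alone, 134.59 under SCD and 166.26 under HFD. A coding-exon stretch 9772 bp inside the gene, outside every promoter window, had a peak in 5 lists. It scored 113.83 in BAT H3K9me2 SCD, 183.71 and 235.76 in BAT H3K9me3 under SCD and HFD, and 60.72 and 71.39 in WAT H3K9me2. In BAT H3K9me2 this was the only peak of Relb, and the HFD list had none.

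Nfkb1 encodes p105, the precursor of p50. In BAT H3K9me2 it counted as marked in both diets, but by different peaks: the SCD peak lay on the 5 prime end (score 70.56, percentile 34.3), and the HFD peak lay 97602 bp inside the gene near the start of a processed transcript (score 70.07, percentile 41.6). At the 5 prime end, 2 neighbouring stretches were called apart from each other. The one over the start had peaks in BAT H3K9me2 SCD, in BAT H3K9me3 under both diets (163.33 and 131.66) and in WAT H3K9me2 SCD (58.97). The one centred 593 bp downstream had peaks in BAT H3K9me3 under both diets (119.96 and 145.23) and in WAT H3K9me2 under both diets (40.68 and 78.19). WAT H3K9me2 HFD therefore kept the downstream peak and lacked the one over the start, which holds the kappaB match.

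Nfkb2 encodes p100, the precursor of p52. Its gene is short, 7354 bp, and its peaks fell on 2 stretches, the 5 prime end and the coding exons of the second part of the gene. The inner stretch had a peak in all 4 BAT lists and both WAT H3K9me2 lists. The 5 prime end had one in BAT H3K9me2 HFD (95.19), BAT H3K9me3 SCD (66.72), BAT H3K9me3 HFD (403.56) and WAT H3K9me2 HFD (74.68). In both tissues, H3K9me2 thus lay on the 5 prime end of Nfkb2 under HFD and not under SCD. In BAT H3K9me3, the 5 prime peak stood at percentile 18.5 under SCD and at 90.2 under HFD, where it had the highest score of any promoter peak of the 10 genes. In WAT H3K9me2 HFD the peak was centred 999 bp inside and did not reach the outermost start, but covered the next 2.

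Bcl3 carries several inner starts, and a stretch around 2 of them, centred 11344 bp inside the gene, had a peak in 6 lists. Its highest score was 129.84 in WAT H3K9me2 SCD (percentile 83.6), and its lowest 39.47 in WAT H3K9me3 SCD, a peak below the lowest score of the HFD list it is compared with. In BAT H3K9me2 it was the only peak, with a score of 62.98 under SCD, and Bcl3 had none under HFD. The 5 prime end was covered in BAT H3K9me3 (111.21 and 117.20) and in WAT H3K9me2 (89.20 and 74.50). With the outermost start alone, Bcl3 was no longer an SCD-only gene in either BAT H3K9me2 or WAT H3K9me3.

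**Figure D3:**
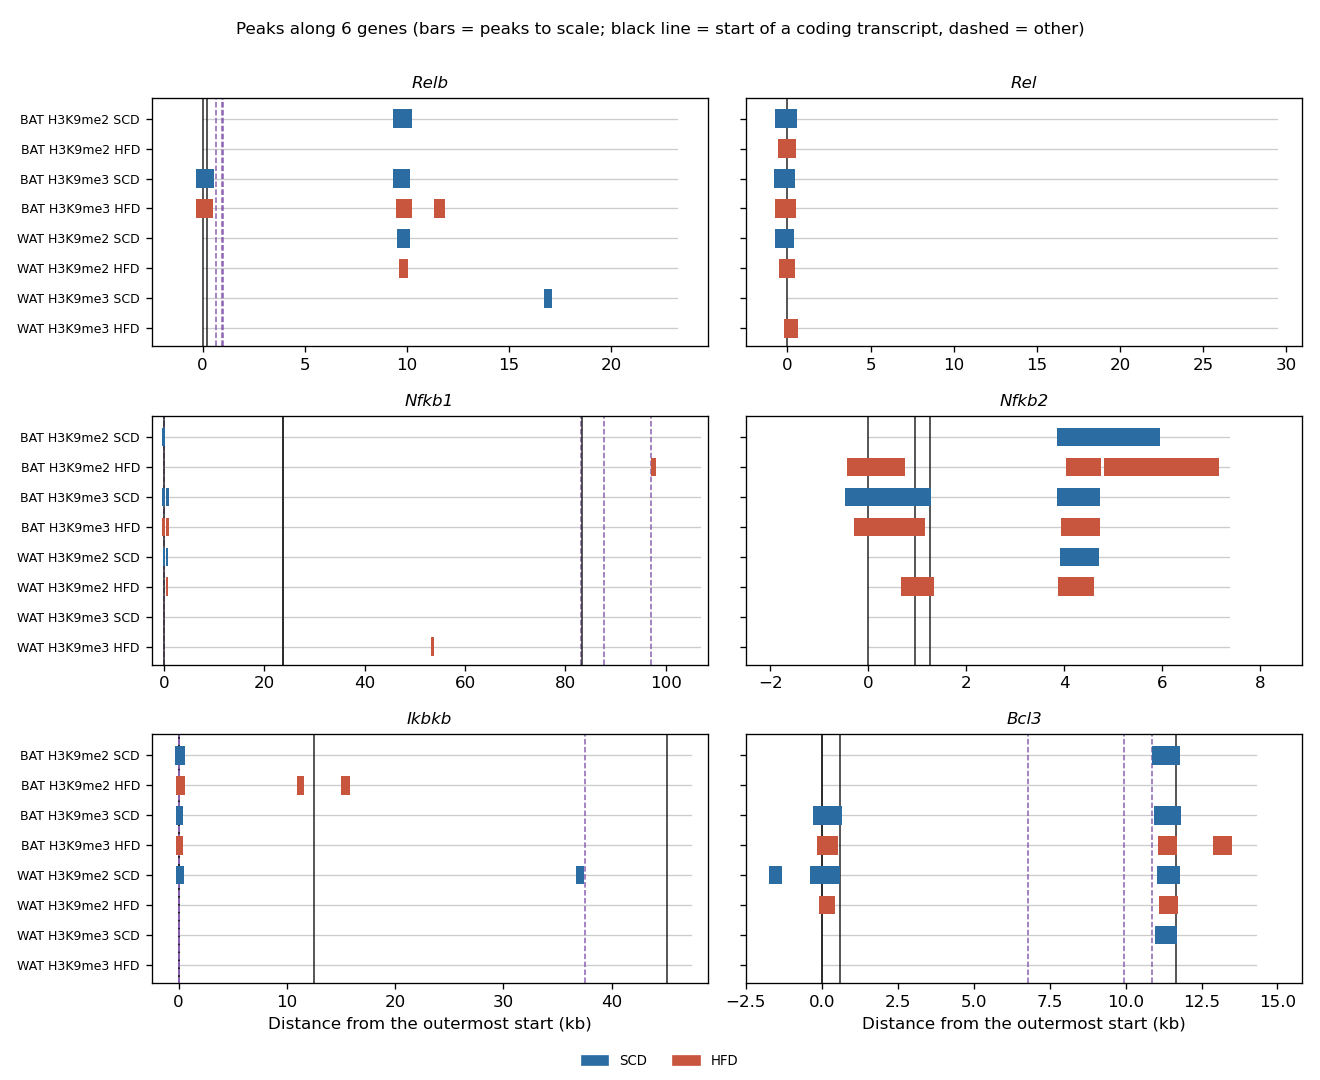
Peaks of Relb, Rel, Nfkb1, Nfkb2, Ikbkb and Bcl3 in the 8 lists (rows), drawn to scale by distance from the outermost start in kb, with SCD in blue and HFD in red; black lines mark starts of coding transcripts and dashed lines other starts. Rel has peaks at its start alone, Relb, Nfkb2 and Bcl3 have a second stretch that recurs inside the gene, and Nfkb1 and Ikbkb have single inner peaks in 1 list each.

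Ikbkb encodes IKKbeta, the main IkB kinase of the canonical arm. Its 5 prime end, where 10 of its 13 starts lie close together, was covered in 5 lists. The scores in BAT were 98.72 and 80.59 for H3K9me2 under SCD and HFD, and 241.01 and 105.93 for H3K9me3 (percentiles 69.2 and 51.2). In WAT H3K9me2 the SCD peak scored 52.45 (percentile 48.1), and the HFD list had none. This score was close to 50, the lowest score of the HFD list, while the SCD list goes down to 30. The BAT H3K9me2 HFD list had 2 further peaks near an inner start, with scores of 69.01 and 73.75, that had no counterpart under SCD. The WAT H3K9me2 SCD list had an inner peak too, centred 37081 bp inside the gene, with none under HFD. Its score of 42.77 was below the lowest score of the HFD list.

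Chuk encodes IKKalpha, the kinase that NIK acts on. Its peaks all lay on its 5 prime end. In BAT H3K9me2 the SCD peak scored 83.59 (percentile 47.0), and the HFD list had none. In BAT H3K9me3 the scores were 211.98 and 162.08 under SCD and HFD (percentiles 64.7 and 68.0). In WAT H3K9me2 they were 110.45 (percentile 79.0, 713 bp wide) and 65.44 (percentile 33.3, 396 bp). The HFD peak was thus the narrower and the lower in score, and these percentiles come from lists that end at scores of 30 and 50.

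Traf2 also had peaks at its 5 prime end only. In BAT H3K9me2 the SCD peak was among the lowest of its list (51.93, percentile 4.3), and the HFD peak scored 81.79 (percentile 55.9). In BAT H3K9me3 the order of the scores was reversed, 264.99 and 145.83. In WAT H3K9me2 the HFD list had a peak of 74.99 (percentile 45.4) and the SCD list had none, although its threshold was the lower one. That pattern was uncommon, being found in 4.58% of the genes that WAT H3K9me2 marked in either diet.

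The scores of the strongest promoter peaks were mostly not high beside the strongest promoter peaks of other genes. Their median over the members was below the median of all genes that had one in 6 of the 8 lists, for example 179.9 against 211.8 in BAT H3K9me3 SCD and 164.2 against 246.5 in BAT H3K9me3 HFD. The value of WAT H3K9me3 SCD, among these, rests on 1 gene. The median of the members was above in WAT H3K9me2 SCD (96.8 against 85.5) and WAT H3K9me3 HFD (90.9 against 83.3, over 3 genes).

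Under SCD, 8 of the 10 genes in BAT had promoter peaks of both marks and 2, Map3k14 and Relb, of H3K9me3 alone (all genes 12%). Under HFD, 7 had both and 3, Relb, Chuk and Bcl3, had H3K9me3 alone (all genes 18.1%). None of the 10 had H3K9me2 alone in BAT, which was rare over all genes too, at 2.99% under SCD and 4.75% under HFD. In WAT under SCD, 1 gene had both and 7 had H3K9me2 alone, where 38.7% of all genes had H3K9me2 alone. Under HFD 2 had both, 5 had H3K9me2 alone (all genes 13.2%) and 1, Rela, had H3K9me3 alone (9.82%). Promoter peaks of both marks were found at 40.3% of all genes in BAT under SCD and 40.8% under HFD, and at 16% and 26.1% in WAT, where the H3K9me3 lists mark fewer genes. Where a gene in BAT had both, the peaks of the 2 marks shared bases in every case except Nfkb1 under HFD, between 221 bp in Map3k14 under HFD and 1217 bp in Rela under SCD. Of the 3 cases in WAT, the peaks shared 631 bp in Rel under HFD and 679 bp in Bcl3 under SCD, and shared none in Map3k14 under HFD.

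Merged over the lists, the peaks of the 10 genes formed 30 stretches. Of these, 13 were in 1 list only, 1 was in 7 lists (Rel), and none was in all 8. Stretches at the 5 prime ends had a CpG ratio of between 0.63 and 0.96, leaving out the upstream peak of Bcl3 in WAT H3K9me2 SCD (0.38), and stretches elsewhere in the genes one of between 0.16 and 0.62.

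The rest of the pathway was described with 5 lists of 73 genes, the inhibitors, other kinases, adaptors and ubiquitin ligases, receptors, and ligands and targets. A promoter peak was found in 31 of the 73 in BAT H3K9me2 SCD (42.5%, all genes 43.3%) and 41 in BAT H3K9me2 HFD (56.2%, all genes 45.6%). In BAT H3K9me3, 49 and 53 had one (67.1% and 72.6%, all genes 52.3% and 58.9%). In WAT H3K9me2, 48 and 26 had one (65.8% and 35.6%, all genes 54.7% and 39.3%). For H3K9me3 in WAT, 14 and 25 had one (19.2% and 34.2%, all genes 18.9% and 35.9%). In BAT H3K9me2 SCD and both WAT H3K9me3 lists the share was close to that of all genes. In BAT H3K9me3 SCD, where 52.3% of all genes had a peak, 20 of 21 adaptors and ubiquitin ligases, 10 of 12 inhibitors and 5 of 20 ligands and targets had one. The order was not the same in every list: in WAT H3K9me2 HFD (all genes 39.3%), 2 of 12 inhibitors and 4 of 20 ligands and targets had one. Of the ligands and targets, Il1b, Il6, Ccl2, Ccl5, Cxcl10, Vcam1 and Nos2, all genes that NF-kB induces in inflammation and named here after their values were seen, had no promoter peak in any of the 8 lists. Others of the same kind had one: Tnf, Cxcl1 and Ptgs2 in WAT H3K9me2 SCD alone, and Icam1 in 5 lists. Sele and Cd40lg of the same group also had none, and neither did Nfkbib, Ikbkg, Traf1 and Tlr4 of the other groups. The share of all genes with no promoter peak in any list was not counted, so these absences have no background beside them. Sod2 and Bcl2l1 had one in BAT H3K9me3 and WAT H3K9me2 under both diets.

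In WAT H3K9me2, the split between diets moved with the score limits of the lists, 30 for SCD and 50 for HFD. Of 49 pathway genes so marked in either diet, 23 had it in SCD only and 1, the adhesion molecule gene Icam1 (score 86.73), in HFD only, beside 31.4% and 4.58% of all genes. With a score of at least 50 in both lists, 10 of 36 were in SCD only and 6, Rnf31, Bcl10, Tnfrsf1b, Ltbr, Icam1 and Bcl2l1, in HFD only (all genes 20.6% and 14.5%). The inhibitors took 7 of the 23, and at a score of at least 50 they took 1 of the 10, Commd1. Among the 7, Nfkbia, which encodes IkBalpha, and Tnfaip3, which encodes the ubiquitin-editing enzyme A20, had the same pattern over the 8 lists as Ikbkb, with H3K9me2 in WAT under SCD and not under HFD. Their SCD peaks scored below 50, the limit of the HFD list. The SCD-only genes with the highest scores were Map3k8 (128.45), Tradd (122.17), Commd1 (103.53) and Ltb (81.06).

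In BAT H3K9me2, 7 of 48 pathway genes were in SCD only and 17 in HFD only (all genes 20.1% and 24.1%). With equal numbers of peaks from each list the direction turned, with 13 of 34 in SCD only and 8 in HFD only (all genes 39.7% and 15.9%). The highest scores in SCD only were those of Traf6 (111.30), Tab3 (110.25), Nfkbiz (109.01) and Tnfrsf11a, the receptor RANK (98.72). Those in HFD only were Rbck1 (197.82), a subunit of the linear ubiquitin ligase, Nfkbid (137.18), Irak4 (124.67) and Nkiras1 (90.54). The peaks of Rbck1 and Nfkbid lay at inner starts, like that of Map3k14. Of 9 receptors, 2 were in SCD only, 5 in HFD only and none in both. With equal numbers of peaks, Tnfrsf1b and Tnfrsf11a stayed in SCD only, and Tnfrsf13c alone was in HFD only.

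In BAT H3K9me3, 3 of 56 pathway genes were in SCD only, Traf3 (235.76), Irak1 (155.59) and Ticam1 (68.61), and 7 in HFD only, led by Irak4 (120.33), Nkiras2 (117.22), Tnfrsf13c (104.09) and Gadd45b (89.80). The shares over all genes were 3.54% and 14.5%. Traf3, which works with Traf2 to hold NIK low, had its BAT H3K9me3 promoter peak under SCD and none under HFD, while Traf2 had one in both diets. In WAT H3K9me3, 10 of 35 were in SCD only, led by Map3k7 (104.73), Traf4 (49.95), Birc3 (41.83) and Tnfrsf1a (35.62), and 21 in HFD only, led by Tab2 (208.37), Malt1 (130.28), Nfkbiz (118.71) and Traf6 (115.64). The shares over all genes were 16.1% and 55.8%. With a score of at least 50 in both lists, 1 of 26, Map3k7, was in SCD only and 24 were in HFD only (all genes 4.48% and 81.5%).

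**Figure D4:**
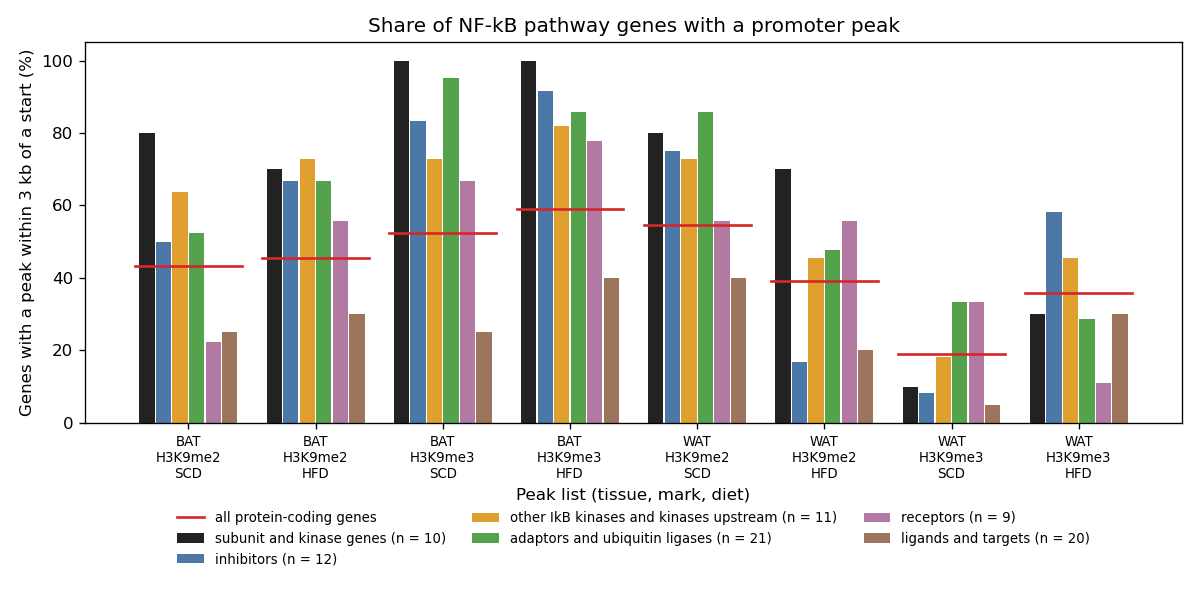
Percent of genes with a peak within 3 kb of a start in each of the 8 lists (groups of bars, by tissue, mark and diet), for the 10 subunit and kinase genes (black) and the 5 pathway lists, with a red line at the percent of all protein-coding genes. The ligands and targets lie below the line in every list, and the inhibitors stand at 75% in WAT H3K9me2 SCD and 16.7% in HFD, lists that end at scores of 30 and 50, with 25% and 16.7% at a score of at least 50 in both.

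Some pathway genes had a promoter peak in exactly the same lists as a member. Tab1, Ltbr and Bcl2l1 shared the pattern of Map3k14, which 299 genes had in all. Commd1, Map3k8 and Traf5 shared that of Rela (340 genes), Tbk1, Tab3, Sharpin and Tnfrsf1b that of Chuk (608 genes), Nfkbia, Tnfaip3, Tank and Ltb that of Ikbkb (400 genes), and Cyld, Map3k1, Map3k3, Ripk1, Tab2, Malt1, Tnfsf11 and Sod2 that of Rel. Nfkb1 and Nfkb2 had the same pattern as each other (977 genes), though their peaks lay at different places in the gene. No pathway gene shared the pattern of Relb, Traf2 or Bcl3, which 145, 54 and 75 genes had.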

How the data were processed

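The data are 8 ChIP-seq peak lists, with 1 library per diet, tissue and mark. Per the study's methods and the submitters' processing notes, the authors cross-linked the tissue in 1% formaldehyde, used FastQC and Trim Galore on the reads, mapped these with Bowtie2 2.4.2 on mm9 and kept unique hits, and found peaks by MACS2. The MACS2 version, the peak threshold and the use of the inputs are not given in the sources used here. The deposited lists give the position, name and score of each peak, and the score has no stated unit. No depth is given, so the precision of a peak is unknown, and how depth moves the calls was not tested.

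Peaks were matched to protein-coding genes of GENCODE vM1 on NCBIM37, whose chromosome ends lay past every one of the 261547 peaks compared. A promoter reached 3 kb from any annotated start in both directions, with at least 1 bp of overlap. Matching was tested on simulated data against a direct search over 724 genes of chromosome 19 and 600 peaks, with 0 differing calls. Sequences came from NCBIM37. Positions are 1-based. Computations used Python 3.11.15, NumPy 2.4.6 and matplotlib 3.10.9.

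The 10 members, the pathway lists and the marker lists were chosen with earlier results of these data known. Named pathway genes were, per tissue and mark, up to 4 with the highest score in SCD only and up to 4 in HFD only, and those with the same pattern of lists as a member, of which 1 is not reported here. Groups came from the sample labels. No test between diets was possible with 1 library each. The alternatives were a score of at least 50 or 80, equal numbers of peaks, promoters of 1 kb, the outermost start alone, the peak centre inside the promoter, and calls by position, with starts of protein-coding transcripts, and the split of the pathway lists between diets under a score of at least 50 or equal numbers of peaks, added after seeing the data.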

Additional observations from a re-analysis of the deposited data

How the results depend on the processing

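Of 288 recomputed counts, 220 stayed within 1.5 times the reported one. Many of these could not change, so the number is not a measure of stability. In 6 of the lists no peak scores below 50, and equal numbers of peaks leave the shortest list, WAT H3K9me2 HFD, as it was. No paired analysis was possible because each diet, tissue and mark has 1 library, and leaving out a replicate was likewise not possible. The strongest peak scores are read from the lists and have no alternative. At a score of at least 80, the counts of members with a promoter peak, a covered start and a gene-body peak were 4, 4 and 6 in BAT H3K9me2 SCD, 1, 1 and 1 in WAT H3K9me2 HFD, and 0, 0 and 0 in WAT H3K9me3 SCD, where a score of at least 50 also gave 0, 0 and 0 and the outermost start alone gave 0 promoter peaks.

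Members in SCD only numbered 1 in BAT H3K9me2 and 5 in WAT H3K9me2 at a score of at least 80, 2 in BAT H3K9me3 (Ikbkb and Bcl3) with equal numbers of peaks, and 4 in WAT H3K9me2 under either rule by position. In WAT H3K9me3 they numbered 0 at a score of at least 50 or 80 or with the outermost start alone. Members in HFD only in BAT H3K9me2 numbered 3 at a score of at least 80, 2 with equal numbers of peaks, promoters of 1 kb or the peak centre, 4 under either rule by position, and 0 with starts of protein-coding transcripts, a choice made after seeing the data. In BAT H3K9me3 they numbered 1 at a score of at least 80 or with equal numbers of peaks, and 2 by position. In WAT H3K9me2 they numbered 0 with the score limit of 80, and 2 with promoters of 1 kb, the outermost start, the peak centre or by position.

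The 5 prime peak of Map3k14 was lost (0) in BAT H3K9me3 SCD with equal numbers of peaks and with a score limit of 80, and in WAT H3K9me2 HFD with that limit. Its inner peaks numbered 1 in BAT H3K9me2 HFD with the score limit of 80 and with equal numbers, 0 in WAT H3K9me2 SCD under both score limits and with equal numbers, and 0 in WAT H3K9me2 HFD with the limit of 80.

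Of the 73 pathway genes, a score of at least 80 left 18 in BAT H3K9me2 HFD, 14 in WAT H3K9me2 SCD, 16 in WAT H3K9me2 HFD, 1 in WAT H3K9me3 SCD and 10 in WAT H3K9me3 HFD. No share over all genes is given for this limit, so these counts have no background beside them. A score of at least 50 left 30 in WAT H3K9me2 SCD (all genes 42.3%) and 2 in WAT H3K9me3 SCD (all genes 6.96%). Equal numbers of peaks left 21 in BAT H3K9me2 HFD, 30 in WAT H3K9me2 SCD and 9 in WAT H3K9me3 SCD, where promoters of 1 kb left 9 and the outermost start 7. In SCD only, the pathway genes numbered 13 in BAT H3K9me2 and 5 in BAT H3K9me3 with equal numbers, 10 in WAT H3K9me2 with equal numbers or a score of at least 50, and, for WAT H3K9me3, 6 and 1 with these choices. In HFD only, they numbered 8 in BAT H3K9me2 with equal numbers and 6 in WAT H3K9me2 under both, choices applied to this split after seeing the data. The lists give no depth, which limits every count.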

Other observations

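Markers of the cells that whole fat can hold were read for promoter peaks in the same lists. Of 7 brown adipocyte markers, 1 had a BAT H3K9me3 peak under SCD (Prdm16) and 5 under HFD (Ucp1, Cidea, Prdm16, Cox8b and Elovl3). Of 7 white adipocyte markers, 2 and 4 had one, and of 6 endothelial markers, 1 and 4. Over all genes the shares were 52.3% and 58.9%, and the HFD list held 52758 peaks against 26835 under SCD. Of 8 macrophage markers, 1 (Fcgr3) and 3 (Fcgr3, Cd14 and Itgam) had one. Over the 8 lists, Fcgr3 had one in all 8, Cd14 in 3, and Csf1r and Itgam in 1 each, while Adgre1, Cd68, Mrc1 and Lyz2 had none. Of 6 T and B lymphocyte markers, at most 1 had a promoter peak in any list. In WAT H3K9me2 the brown adipocyte, white adipocyte and endothelial markers with a promoter peak went the other way. They numbered 4, 3 and 2 under SCD and 2, 1 and 1 under HFD (all genes 54.7% and 39.3%). In BAT H3K9me2 they were 2, 1 and 1 under SCD and 3, 2 and 3 under HFD (43.3% and 45.6%). In WAT H3K9me3 they were 1, 1 and 3 under SCD and 2, 2 and 2 under HFD (18.9% and 35.9%). These lists therefore gave no count of macrophages or lymphocytes, the cells in which Rel and Relb are best known, and the part of the cell mix in the differences between diets was not tested.

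Around the inner start of Nfkb2 that lies 958 bp from the outermost one, 2 further kappaB matches, 722 and 968 bp from the outermost start, lay inside a peak in 4 and 3 lists.
Nfkb2, first inner match (chr19:46379939-46379968, plus strand): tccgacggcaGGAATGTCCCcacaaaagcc
Nfkb2, second inner match (chr19:46380185-46380214, plus strand): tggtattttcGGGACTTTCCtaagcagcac
Both lay inside the WAT H3K9me2 HFD peak of Nfkb2, which did not reach the 2 matches near the outermost start.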
